A study of Mus musculus with 5 samples.

Results

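Plasmacytoid dendritic cells (pDCs) were followed in mouse bone marrow during 12 days of B-cell acute lymphoblastic leukemia (B-ALL). They were chosen by their own RNA counts in single-cell RNA sequencing. A barcode was taken as a pDC when it had at least 500 unique molecular identifiers (UMIs), at most 10% of them from mt- genes, at least 2 UMIs of Siglech and at least 1 UMI of Klk1, Cox6a2 and Ccr9 summed. This rule found 684 pDCs among 29679 barcodes that met the UMI and mt- limits, or 2.3%.

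The 5 mice were C57BL/6J, 8 weeks old and not irradiated, and each received 1000 BCR-ABL1 pre-B leukemia cells through the tail vein. The day 0 mouse was killed right after the injection and served as the comparison for 1 mouse each at days 3, 6, 9 and 12. Flushed marrow was pooled with cells released from the crushed long bones by collagenase and DNase, and red cells were lysed. The cells were frozen in fetal calf serum with dimethyl sulfoxide and shipped. A 10x Genomics 3' library was then made for each mouse. In the order of the days the kept barcodes numbered 6259, 4870, 6041, 6944 and 5565, from libraries of 35329966, 38827241, 40601920, 43554233 and 33425695 UMIs.

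Each day was 1 library from 1 mouse, so no test was made between days, and cells of a mouse were not counted as replicates. Intervals are 95% exact Poisson intervals for summed counts and exact Clopper-Pearson intervals for shares, and they cover counting error only. The level of a gene is its UMIs summed over the pDCs of a library, per 10000 UMIs of those pDCs. Every later day was set against the same day 0 library, so the 4 comparisons were not independent. Any 2 of the libraries shared 40 to 61 kept barcodes over 10 pairs, against 36.8 to 58.9 given by the product of their numbers, and 0 pDC barcodes were shared. Days 3 and 6 had the largest excess, with 61 shared against 39.9.

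pDCs are dendritic cells that sense viral nucleic acids through endosomal Toll-like receptors and answer with type I interferon. They develop in the marrow under the E protein Tcf4, which binds E-box sites, and their secretory apparatus resembles that of plasma cells. In the mouse they carry Siglech and Bst2, share Ly6d and some immunoglobulin gene transcripts with B-lineage cells, and when mature carry the homing receptor Ccr9.

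The rule genes lay on chromosomes 7 and 9 of GRCm38. Siglech was at chr7:55768178-55778925 on the plus strand, Klk1 at chr7:44225360-44229618 on the plus strand and Cox6a2 at chr7:128205435-128206387 on the minus strand. Ccr9 was at chr9:123678439-123784330 on the plus strand, and Bst2, a marker outside the rule, at chr8:71534255-71537456 on the minus strand. The 250 bases upstream of the RefSeq start were read from GRCm38.p6 for 4 of these 5 genes, with Cox6a2 missing. All 4 windows held the E-box CACCTG or its reverse complement CAGGTG, a motif present on either strand in 5657 of 32851 promoter windows (17.2%). The motif was chosen after the windows were seen, and the match describes sequence, not binding.

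The Siglech window, chr7:55767934-55768183 on the plus strand, had the motif ending 14 bases before the start. In the Ccr9 window, chr9:123766961-123767210 on the plus strand, that distance was 79 bases. This window belongs to a RefSeq start that lies inside the longer GENCODE span of Ccr9 given above. The Klk1 window, chr7:44225110-44225359 on the plus strand, had it at 81 bases. For Bst2 the window was chr8:71537473-71537722 on the minus strand and the distance 199 bases. Each sequence is given on the strand of its gene, with the motif in capitals.

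Siglech: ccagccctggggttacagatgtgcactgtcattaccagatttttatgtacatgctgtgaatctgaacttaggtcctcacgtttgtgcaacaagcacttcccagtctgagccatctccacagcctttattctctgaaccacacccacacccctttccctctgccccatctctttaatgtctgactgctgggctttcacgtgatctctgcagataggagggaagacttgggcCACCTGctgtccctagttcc
Ccr9: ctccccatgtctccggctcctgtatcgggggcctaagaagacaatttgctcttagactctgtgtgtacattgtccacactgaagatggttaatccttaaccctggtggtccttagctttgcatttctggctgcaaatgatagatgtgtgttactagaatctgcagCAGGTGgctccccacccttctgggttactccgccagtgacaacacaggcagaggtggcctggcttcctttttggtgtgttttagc
Klk1: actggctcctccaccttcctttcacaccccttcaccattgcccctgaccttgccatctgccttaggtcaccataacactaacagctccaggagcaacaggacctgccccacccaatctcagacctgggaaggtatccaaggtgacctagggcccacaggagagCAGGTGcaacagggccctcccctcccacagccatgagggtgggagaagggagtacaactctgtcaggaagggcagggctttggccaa
Bst2: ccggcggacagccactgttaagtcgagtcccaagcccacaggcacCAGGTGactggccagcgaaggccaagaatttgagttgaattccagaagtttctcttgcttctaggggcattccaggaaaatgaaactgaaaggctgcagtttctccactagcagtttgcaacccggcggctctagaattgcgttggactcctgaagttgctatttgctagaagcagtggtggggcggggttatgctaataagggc

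The rule genes themselves are not findings, since they chose the cells. Siglech stood at 12.4, 15.9, 15.2, 14.7 and 10.4 per 10000 UMIs of pDCs over the 5 days, the order in which all groups of 5 values are given. In the other kept barcodes of the same libraries it was 0.00866 to 0.0743. Klk1 was 2.2, 2.97, 3.85, 2.53 and 1.42, highest at day 6 and lowest at day 12. Ccr9 was between 4.31 and 4.86 on days 0 to 9 and 3.09 at day 12. Cox6a2 was 19.3, 17.5, 17.1, 14.7 and 16, and a UMI of it was found in 94.7 to 100% of the pDCs of each library.

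Bst2 took no part in the choice. Its level was 38.4, 41.3, 42.4, 39.1 and 35.3 in pDCs over the 5 days, against 0.778 to 1.21 in the other barcodes. A Bst2 UMI was present in 98.9, 100, 98.4, 99 and 96.4% of pDCs.

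Cells next to the limits were looked at for the same gene. The 41 pDCs with exactly 2 Siglech UMIs had Bst2 at 23.5 and Tcf4 at 7 per 10000, and the 643 with more had 41.6 and 9.42. Among pDCs with a single partner UMI, of which there were 19, Bst2 was 16.1. Just outside the rule, 83 kept barcodes had 1 Siglech UMI with a partner UMI, and their Bst2 was 7.76 and their Tcf4 2.7. A further 42 had enough Siglech but no partner UMI, with Bst2 at 17.4 and Tcf4 at 3.93.

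Depth was similar in the 5 sets of pDCs. Their median UMIs were 4904, 5435, 5231, 4677 and 4826, above the 3143, 4397, 3659, 3528 and 3558 of all kept barcodes. Median genes per pDC were 1725, 1834, 1801, 1646 and 1752. The median mt- share was 2.93, 4.47, 4.71, 4.84 and 3.39%, lower at days 0 and 12 than on the days between.

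Markers of other cell types were present in some pDCs. At least 10% neutrophil-marker UMIs, at least 4 B-lineage genes, at least 4 T and NK genes or at least 7 monocyte genes were met by 8, 14, 15, 30 and 2 pDCs, 69 in all. Of these, 36 passed the neutrophil limit, 12 the B-lineage limit, 13 the T and NK limit and 9 the monocyte limit. The threshold that Scrublet set for doublets marked 158, 1, 3, 0 and 3 kept barcodes, under 0.5% in 4 libraries, so the 5% with the highest scores were left out as an alternative instead.

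The first question was how many barcodes of each library were pDCs. There were 95, 165, 193, 203 and 28 of them over the 5 days, carrying 518952, 1037768, 1087836, 1092980 and 155430 UMIs. Their share of kept barcodes was 1.52% (1.23 to 1.85) at day 0, 3.39% (2.9 to 3.94) at day 3, 3.19% (2.77 to 3.67) at day 6, 2.92% (2.54 to 3.35) at day 9 and 0.503% (0.335 to 0.726) at day 12. The share was high on days 3 to 9 and lowest on day 12.

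Against day 0 the share was 2.23-fold (1.72 to 2.9) at day 3. At day 6 the ratio was 2.1 (1.64 to 2.72), and at day 9 it was 1.93 (1.5 to 2.48). At day 12 it was 0.331 (0.209 to 0.51), and 0.172 (0.112 to 0.256) of the day 9 share. With the mt- limit at 5% instead of 10% the shares were 1.45, 2.32, 2.16, 1.81 and 0.411%, and the day 9 ratio became 1.25.

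**Figure D1:**
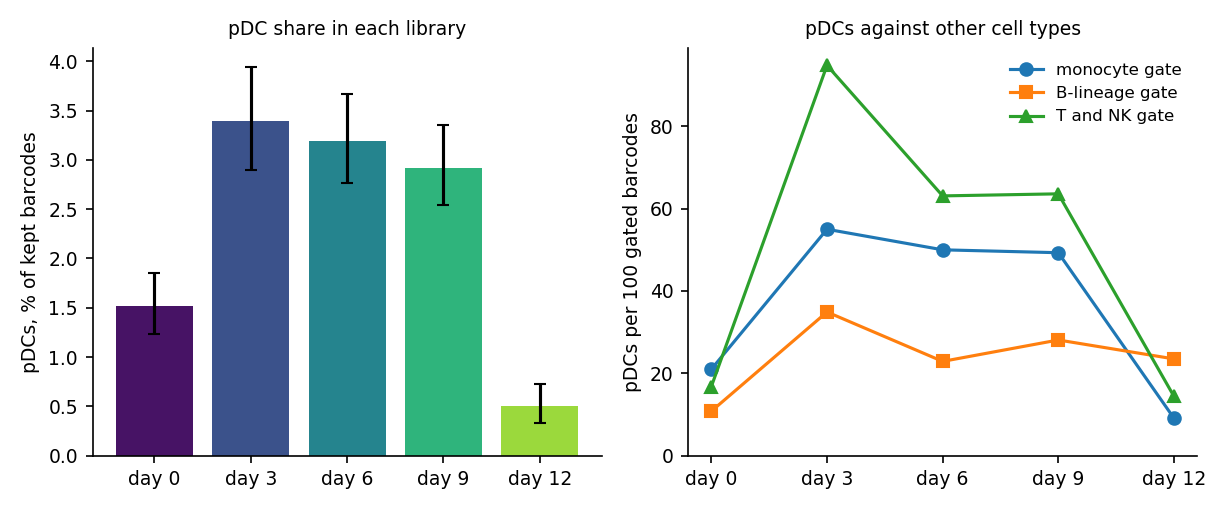
Bars on the left give the share of kept barcodes that met the pDC rule (percent) in the 1 library of each day, with exact Clopper-Pearson intervals, and lines on the right give pDCs per 100 monocyte, B-lineage or T and NK barcodes. The shares at days 3, 6 and 9 lie between 2.92 and 3.39%, above the 1.52% of day 0, and day 12 is at 0.503%, while per 100 B-lineage barcodes day 12 (23.5) is above day 0 (10.8).

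A share depends on the other cells in the suspension. Neutrophil-gated barcodes, which had at least 20% of UMIs from neutrophil markers and few B-lineage or T and NK markers, made up 46.4, 57, 50.3, 55.1 and 75.2% of the kept ones. With all barcodes at or above 20% neutrophil-marker UMIs left out, gated or not, pDCs were 2.78% (2.24 to 3.4), 7.82% (6.68 to 9.08), 6.64% (5.75 to 7.61), 6.45% (5.6 to 7.4) and 1.92% (1.26 to 2.81) of the rest. Day 12 stayed lowest.

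The same direction was seen against monocytes. There were 21, 55, 50, 49.3 and 9.09 pDCs per 100 monocyte-gated barcodes. Per 100 T and NK barcodes the numbers were 16.8, 94.8, 63.1, 63.6 and 14.4. Per 100 conventional dendritic cells (cDCs) they were 190, 217, 247, 207 and 49.1, on 50, 76, 78, 98 and 57 cDC barcodes. Against cDCs, days 3 to 9 were thus much nearer day 0 than against monocytes or T and NK barcodes. Per 100 B-lineage barcodes they were 10.8, 34.9, 22.9, 28.1 and 23.5, so on this scale day 12 was above day 0. Absolute numbers of cells in the marrow were not measured, and a change in pDC number cannot be told apart from a change in the cells around them.

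Choosing barcodes by at least 4 of 8 other genes gave larger sets of 252, 377, 541, 489 and 76. These held 97.9, 98.2, 99, 97.5 and 96.4% of the pDCs, but only 36.9, 43, 35.3, 40.5 and 35.5% of the barcodes in them met the pDC rule. Their shares of 4.03, 7.74, 8.96, 7.04 and 1.37% were again highest on days 3 to 9.

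The next question was what set pDCs apart within each library. This contrast follows from the rule, so it describes the chosen cells and is not a test. A UMI in pDCs was found for 13762 genes, and 4256 of them had at least 100. Among those 4256, 423 (9.94%) were at least 2-fold higher in pDCs than in the other kept barcodes of all 5 libraries and 102 (2.40%) at least 2-fold lower. This floor counts UMIs in pDCs alone, so it takes out genes that are low in them. With the floor met either by the UMIs in pDCs or by those they would have at the level of the other barcodes, a choice made after the data were seen, 423 of 4606 genes (9.18%) were higher and 205 (4.45%) lower. The list counts that follow use this wider floor. Of the 24 pDC markers outside the rule, 22 were higher in all 5 libraries, and Ly6c2 and Ptprc were not.

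The 25 genes with the largest lowest ratio over the 5 libraries, with 0.1 per 10000 added to both sides, were headed by D13Ertd608e. Its level was 4.22, 5.52, 5.18, 5.12 and 3.67 in pDCs and at most 0.0123 in the others, and its ratio ran from 36.2 to 52.4. Bst2 followed with ratios of 31.6 to 40.3 and Tcf4 with 22.1 to 39.4. Cd300c was 2.45, 2.83, 2.7, 2.74 and 2.38, a ratio of 21.3 to 22.8. Cd7 ran from 5.73 to 8.96, at ratios of 19.4 to 29.3.

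Irf8 was at 20.8, 22, 23.5, 20.9 and 19.7 in pDCs, 16.8 to 25.1 times the level in the others. Ccnd1 had ratios of 16.8 to 19.2, Runx2 of 16.1 to 18.3, Pltp of 13.3 to 16.3 and Sh3bgr of 13 to 19.9. Lair1, Ctsl, Cd209d, Upb1, Lag3, Ly6d, Rnase6, Tsc22d1 and Kmo had lowest ratios between 10.1 and 12.4. Atp1b1, P2ry14, Scimp, Pacsin1, Bcl11a and Klk1b27 completed the 25, with lowest ratios from 8.05 to 8.99. Klk1b27 lies in the kallikrein cluster that holds Klk1, at chr7:44052290-44056712 on the plus strand and had a UMI in 28.8% of pDCs. Of the 25 genes 17 had an upstream window, 27 windows in all. The E-box CACCTG was in 4 of these windows (14.8%, against 17.2% of all windows), those of Bst2, Cd300c, Irf8 and P2ry14. Counted by gene, that is 4 of 17 (23.5%) against 19.4% of 27025 genes with a window. D13Ertd608e, Tcf4, Cd7, Ccnd1, Sh3bgr, Lag3, Ly6d and Scimp had no window. That leaves 68% of the 25 matched, under the 80% asked of each set, so this check is void. Of the 5 markers above 80% were matched, and of the immediate-early genes below 81.2%.

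**Figure D2:**
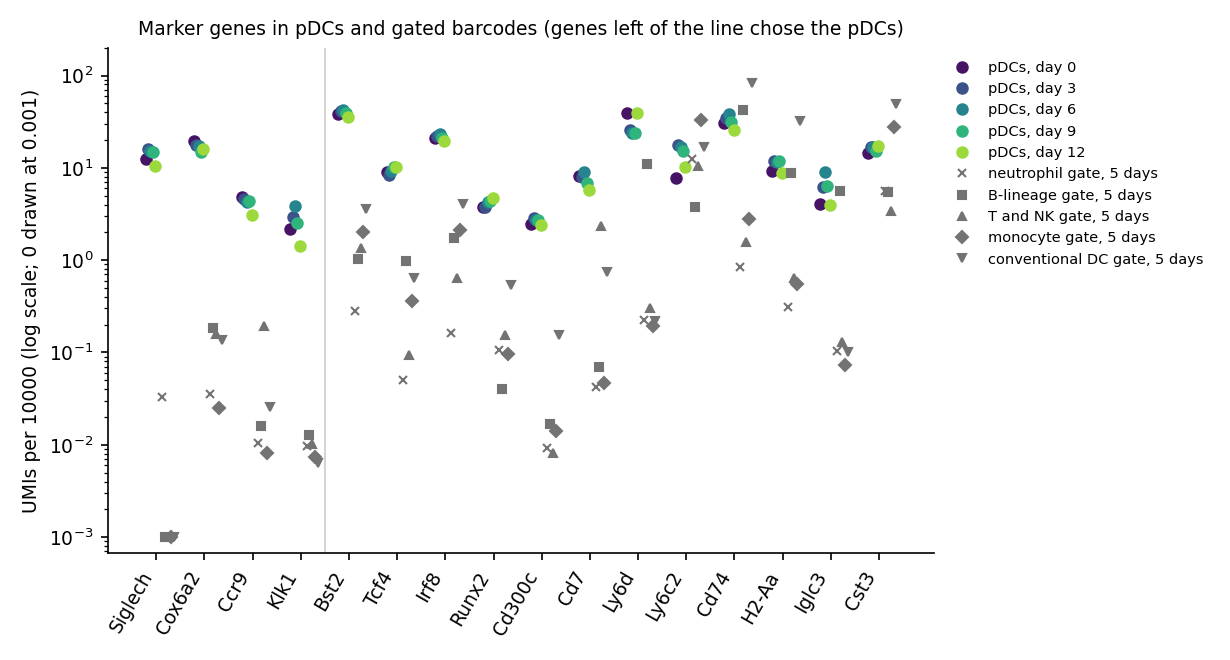
Level of each of 16 genes (horizontal axis) in UMIs per 10000 (logarithmic vertical axis, 0 drawn at 0.001), with a colored point for the pDCs of each day and gray symbols for barcodes gated as other cell types, pooled over the 5 libraries. The genes left of the line chose the pDCs, the gates other than neutrophils required 0 Siglech UMIs, and Bst2, which took no part in the choice, is at 35.3 to 42.4 in pDCs and at most 3.62 in the gates shown.

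Among transcription factors Tcf4 was 9, 8.44, 9.2, 10.1 and 10.1 over the 5 days, and 0.159 to 0.32 in the other barcodes. Spib was 2.31, 2.76, 2.78, 2.74 and 1.87, lowest at day 12. Runx2 went from 3.74 to 4.7, and Bcl11a was 3.28, 4.1, 4.92, 4.25 and 3.54. Of 25 listed factors 18 met the wider floor, and of these 8 were at least 2-fold higher in pDCs in every library and 2 lower, against 9.18 and 4.45% of the 4606 genes.

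Of 19 nucleic acid sensing genes 14 met the wider floor, and of these 8 were higher in pDCs in all 5 libraries and 0 lower, against the same 9.18 and 4.45%. Tlr7 was at 0.462, 0.588, 0.57, 0.558 and 0.45. For Tlr9 the 5 libraries held 0, 1, 2, 1 and 0 UMIs, too few for a level. Unc93b1 was 4.55, 4.6, 4.59, 3.61 and 3.28, and Pld4 was 5.11, 7.04, 6.22, 5.74 and 4.63, with its highest value at day 3. Irf7 rose from 0.809 at day 0 to 1.41 at day 3 and was 1.23, 1.13 and 1.03 after that.

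No transcript of the 19 type I and III interferon genes was counted. Over the 5 libraries they had 0 UMIs in 684 pDCs. For cells with a UMI of any of them, taking 3 cells as the limit that a count of 0 allows gives up to 3.16, 1.82, 1.55, 1.48 and 10.7% of pDCs over the 5 days. This bounds cells with a UMI, not cells that made the transcript.

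Class II genes were present in pDCs at levels between those of other gates. Cd74 was 30.9, 35, 38.1, 31.7 and 25.7 over the 5 days. Pooled over libraries it was 83.5 in cDCs, 42.1 in B-lineage barcodes and 2.77 in monocytes. H2-Aa was 9.29, 11.9, 11.6, 12 and 8.69, with 32.2 in cDCs, 8.84 in B-lineage barcodes and 0.55 in monocytes. Of 14 antigen presentation genes, 7 were at least 2-fold higher in pDCs than in the other barcodes of every library and 0 lower, against 9.18 and 4.45% of all genes. Pooled, the list summed to 147 in pDCs, 250 in cDCs, 120 in B-lineage barcodes and 81.2 in monocytes.

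The remaining lists were split in the same way, to be read beside 9.18% higher and 4.45% lower over all genes. Neutrophil-gated barcodes were 46.4 to 75.2% of the kept ones, so they weigh on this contrast. Among 24 secretory genes 7 were at least 2-fold higher in every library and 1 was lower, and among 13 homing receptors 3 were higher and 0 lower. Cytokine receptors and signalling genes gave 5 higher and 2 lower of 13. For interferon-stimulated genes it was 6 and 2 of 14, for lymphoid genes 5 and 4 of 19, and for immediate-early genes 2 and 5 of 28. Pooled over libraries, interferon-stimulated genes summed to 61.6 in pDCs, 71.8 in monocytes, 59.9 in cDCs and 17.7 in neutrophils. Heat-shock, proliferation, survival and mitochondrial genes gave 0 in either direction, of 9, 26, 12 and 12. Neutrophil markers were lower for 12 of 12. Monocyte markers gave 0 higher and 4 lower of 8, B-lineage markers 0 and 3 of 7, and T and NK markers 1 and 2 of 7. Against the other barcodes the cDC markers gave 5 higher and 1 lower of 11. Pooled over libraries, cDC markers summed to 23.9 in pDCs, 34.1 in monocytes and 68.9 in cDCs. Plasma cell markers gave 1 and 0 of 3, erythroid markers 0 and 0 of 4, and basophil and mast cell markers 0 and 0 of 2.

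The main comparison asked what changed inside pDCs on each later day. At day 3, of 3593 genes with at least 50 UMIs over both libraries, 72 (2.0%) were at least 2-fold higher than at day 0 and 61 (1.70%) at least 2-fold lower. At day 6, of 3738 genes, 75 (2.01%) were higher and 70 (1.87%) lower. At day 9, of 3697 genes, the counts were 85 (2.30%) and 69 (1.87%). At day 12, with 28 cells and 1742 genes, they were 28 (1.61%) and 37 (2.12%). These are sizes and not tests. With every pDC thinned to 1000 UMIs they fell to 6 and 15 at day 3, 5 and 32 at day 6, 9 and 21 at day 9, and 5 and 10 at day 12, among 655, 736, 751 and 341 genes. Among genes with at least 100 UMIs they were 22 and 24, 25 and 24, 25 and 23, and 9 and 9.

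Gene lists were read with a lower bar, 1.5-fold among genes with at least 20 UMIs. At day 3 this was met upward by 0 of 29 immediate-early genes, against 14.6% of 6454 genes, and downward by 22 of 29, against 12.3%. At day 6 it was 0 of 28 against 15.4% of 6638 upward and 22 of 28 against 12.3% downward. At day 9 it was 0 of 29 against 14.5% of 6542 upward and 22 of 29 against 13.7% downward. At day 12 it was 1 of 27 against 12.6% of 3910 upward and 12 of 27 against 17.1% downward.

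The immediate-early genes had the lowest list medians on days 3, 6 and 9. Their median log2 ratio to day 0 was -1.04, -1.02, -1.21 and -0.45 at days 3, 6, 9 and 12, while the medians over all genes were 0.00, 0.02, -0.02 and -0.03. Summed over the list the level was 94.7 per 10000 at day 0, then 43.7, 45.3, 43.3 and 62.4. So the list was high at day 0, low on days 3 to 9 and in between at day 12. With each pDC thinned to 1000 UMIs the day 12 median was -0.75.

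**Figure D3:**
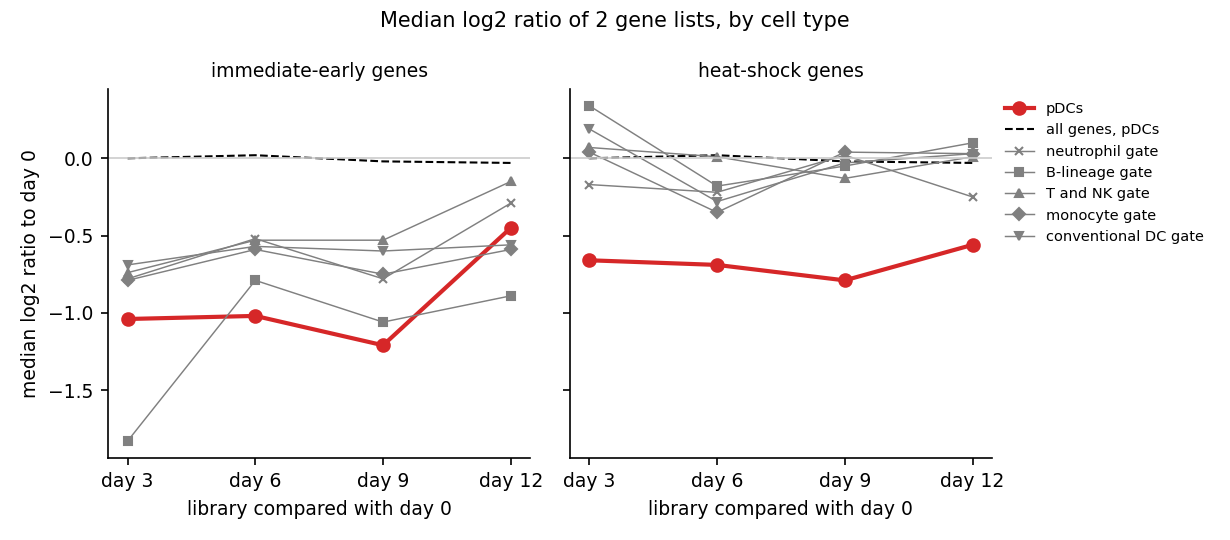
Median log2 ratio to day 0 (vertical axis) at days 3, 6, 9 and 12 (horizontal axis) of the immediate-early genes on the left and the heat-shock genes on the right, in pDCs (red), in barcodes gated as other cell types (gray) and over all genes in pDCs (dashed). In pDCs the immediate-early median lies at -1.04, -1.02, -1.21 and -0.45 and the heat-shock median at -0.66, -0.69, -0.79 and -0.56.

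Fos, at chr12:85473890-85477273 on the plus strand, showed this course. Its level was 16.7 (15.6 to 17.8) at day 0, 3.97 (3.6 to 4.37) at day 3, 4.34 (3.96 to 4.75) at day 6, 4.4 (4.02 to 4.81) at day 9 and 9.07 (7.64 to 10.7) at day 12. It was highest at day 0. The level was 4.2-fold (3.73 to 4.73) lower at day 3, 3.84-fold lower at day 6, 3.79-fold lower at day 9 and 1.84-fold lower at day 12.

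Atf3, at chr1:191170296-191218039 on the minus strand, fell further. It had 57, 6, 8, 13 and 3 UMIs, or 1.1, 0.0578, 0.0735, 0.119 and 0.193 per 10000. It was 19-fold (8.21 to 53.9) lower at day 3, 14.9-fold (7.09 to 36.3) at day 6 and 9.23-fold (4.99 to 18.4) at day 9. On the 3 UMIs of day 12 the ratio was 5.69-fold (1.85 to 28.4) lower.

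Cd69 was 2.68, 0.559, 0.57, 0.421 and 1.42 per 10000, high at day 0 and intermediate at day 12. It was lower by 4.79-fold (3.5 to 6.63), 4.7-fold, 6.36-fold and 1.89-fold. Rgs1 was 2.66, 0.414, 0.45, 0.403 and 0.836. Nr4a1 was 0.925 at day 0 and 0.116, 0.193, 0.201 and 0.257 later, so it stayed low at day 12.

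Jun went from 8.84 to 3.08, 2.85, 2.53 and 5.08. Dusp1 was 2.97, 0.771, 0.938, 1.13 and 2.19, and Ppp1r15a was 0.944, 0.27, 0.359, 0.165 and 0.708. The chemokine gene Ccl4 was 3.62, 0.848, 1.03, 1.03 and 3.73, with 29 of its 58 day 12 UMIs in 1 cell. Jund was 13.7, 6.77, 6.03, 6.66 and 8.43. Klf2 was 6.92, 3.35, 3.38, 3.26 and 5.15.

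Other genes of the list moved by less than 1.5-fold on days 3, 6 and 9. Btg1 was 6.28, 5.42, 6.2, 5.7 and 4.05, and Btg2 was 2.51, 2.57, 2.63, 2.42 and 1.42. Both were lowest at day 12, more than 1.5-fold below day 0.

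By the rule for naming genes, the 8 largest decreases at day 3 were Atf3, Nr4a1, Rgs1, Hist1h2ae, Cd69, Ccl4, Fos and Dusp1. At day 6 they were Atf3, Rgs1, Nr4a1, Cd69, Fos, Hist1h2ae, Ccl4 and B930036N10Rik. At day 9 they were Atf3, Rgs1, Cd69, Ppp1r15a, Nr4a1, Fos, Kdm6b and Hist1h2ae. Hist1h2ae was 2.1, 0.347, 0.57, 0.595 and 3.54 per 10000, but its 109 day 0 UMIs came from 10 cells and its 55 day 12 UMIs from 5. B930036N10Rik was 0.694, 0.366, 0.202, 0.311 and 1.35, and Kdm6b was 0.713, 0.385, 0.349, 0.201 and 0.901.

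Of 3349 genes with at least 50 UMIs in each of the comparisons for days 3, 6 and 9, 113 (3.37%) were at least 1.5-fold higher than day 0 in all of them and 125 (3.73%) at least 1.5-fold lower. The comparisons share day 0, so a high or low value there enters each of them. The 10 most extreme were Atf3, Rgs1, Cd69, Nr4a1, Fos, Hist1h2ae, Ccl4, Jun, Dusp1 and Ppp1r15a, each of them lower.

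The cyclic AMP response element TGACGTCA, which is its own reverse complement, was looked for upstream of the list. It was present in 508 of 32851 windows (1.55%) and in 3 of the 31 windows (9.68%) of immediate-early genes, 1 each for Dusp1, Btg2 and Ppp1r15a. Counted by gene, that is 3 of 26 (11.5%) against 478 of 27025 genes with a window (1.77%). Egr1, Egr3, Ier2, Cd69, Nfkbiz and Myc had no window. In Dusp1, chr17:26508473-26508722 on the minus strand, it ended 135 bases before the start. In Ppp1r15a, chr7:45526269-45526518 on the minus strand, it ended 4 bases before it. Both sequences from GRCm38.p6 are given on the strand of the gene, with the element in capitals, which was chosen after the data were seen.

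Dusp1: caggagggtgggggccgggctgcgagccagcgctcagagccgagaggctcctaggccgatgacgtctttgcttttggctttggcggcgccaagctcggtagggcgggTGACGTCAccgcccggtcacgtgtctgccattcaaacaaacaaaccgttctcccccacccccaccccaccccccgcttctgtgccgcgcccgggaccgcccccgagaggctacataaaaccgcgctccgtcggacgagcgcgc
Ppp1r15a: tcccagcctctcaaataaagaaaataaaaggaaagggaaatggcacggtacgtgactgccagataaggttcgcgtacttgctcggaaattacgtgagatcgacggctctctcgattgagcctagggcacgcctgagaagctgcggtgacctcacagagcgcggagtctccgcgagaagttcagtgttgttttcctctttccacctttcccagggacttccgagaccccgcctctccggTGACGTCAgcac

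The fall was not limited to pDCs. The same list had medians of -0.78, -0.52, -0.78 and -0.29 in neutrophil-gated barcodes at days 3, 6, 9 and 12. B-lineage barcodes had -1.83, -0.79, -1.06 and -0.89, and T and NK barcodes -0.74, -0.53, -0.53 and -0.15. Monocytes had -0.79, -0.59, -0.75 and -0.59, and cDCs -0.69, -0.57, -0.60 and -0.56. Fos was 8.61, 4.41, 5.24, 4.84 and 8.44 in neutrophils and 26.2, 11.8, 11.2, 12.7 and 22.8 in monocytes.

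Shares of cells were set beside neutrophil barcodes of the same library, which hold their own transcripts and free RNA. After each barcode was thinned to 1000 UMIs, 70.5, 26.2, 30.1, 28.1 and 64.3% of pDCs had a Fos UMI, against 50.2, 36.8, 37.6, 35.6 and 53.4% of 500 neutrophil barcodes from each library. Median depth before thinning was 4904, 5444, 5231, 4677 and 4826 UMIs for the pDCs and 4062, 3672, 3700, 3388 and 3554 for the neutrophils. For Cd69 the thinned share of pDCs was 16.8, 5.49, 3.11, 4.93 and 3.57%, against 3.6, 0.6, 0.8, 1.4 and 1% of neutrophils, also highest at day 0. Leaving out the 69 pDCs with markers of other cell types gave Fos levels of 18, 3.9, 4.23, 4.06 and 9.95. Whether handling of the day 0 sample, the disease or the mouse set the difference was not tested.

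Most heat-shock genes were lower on days 3, 6 and 9. Of 12, 12, 13 and 10 such genes with at least 20 UMIs, 0 were at least 1.5-fold higher on any day and 9, 8, 8 and 4 at least 1.5-fold lower at days 3, 6, 9 and 12, against 12.3, 12.3, 13.7 and 17.1% of all genes. Their medians were -0.66, -0.69, -0.79 and -0.56, and their summed level was 47, 36, 36.4, 31.6 and 31.8. The same genes had medians of -0.17, -0.22, 0.02 and -0.25 in neutrophils and 0.04, -0.35, 0.04 and 0.03 in monocytes, nearer 0 than in pDCs. In cDCs the medians were 0.19, -0.28, -0.03 and 0.03.

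Hsp90aa1 was 7.26, 4.62, 4.34, 3.93 and 5.02, lower on every later day. Hspa5 was 6.55, 4.21, 3.5, 3.51 and 4.76. Dnajb1 was 1.31 at day 0 and 0.53, 0.643, 0.741 and 0.579 after it, and Dnaja1 was 2.7 and then 1.71 to 1.8. Hspa1a was 0.308, 0.0675, 0.046, 0.165 and 0.0643, with few UMIs on the later days. For Hspb1 all 36 UMIs of day 0 came from 1 cell.

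Some interferon-stimulated genes were higher on days 3 to 9. At least 1.5-fold increases were met by 6 of 16, 7 of 16, 7 of 17 and 0 of 11 genes at days 3, 6, 9 and 12, and decreases by 0, 1, 0 and 1. Over all genes the shares with such an increase were 14.6, 15.4, 14.5 and 12.6%, and with such a decrease 12.3, 12.3, 13.7 and 17.1%. The medians were 0.51, 0.42, 0.54 and -0.07, and the summed level was 53.7, 63.8, 63.3, 62.9 and 52.5. Neutrophils had list medians of 0.70, 0.53, 0.64 and 0.29 and monocytes 0.44, 0.25, 0.04 and 0.25. cDCs went the other way with -0.31, -0.25, -0.38 and -0.80, and B-lineage barcodes had -0.64, -0.03, -0.03 and -0.51. T and NK barcodes had 0.03, -0.38, 0.33 and 0.15. Monocyte markers were higher in pDCs on the same days, with medians of 0.73, 1.15, 0.78 and -0.04 at days 3, 6, 9 and 12. How much of the list came from monocyte RNA was not tested.

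Ifi44 was 0.0771, 0.251, 0.34, 0.238 and 0.129 in pDCs, highest at day 6. Ifitm3 was 1.71, 3.58, 2.81, 4.38 and 1.87, but 14.8 to 17.4 in the other barcodes. Ifnar1 was 0.636, 1.2, 0.965, 0.988 and 0.708, high on days 3 to 9. How much of Ifitm3 came from the surrounding RNA was not tested.

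The summed level of the mitochondrial genes was also higher on days 3 to 9. Of 12 genes in each comparison, 5, 6, 6 and 0 were at least 1.5-fold higher, against 14.6, 15.4, 14.5 and 12.6% of all genes, and 1, 1, 0 and 0 lower, against 12.3, 12.3, 13.7 and 17.1%. The medians were 0.50, 0.59, 0.59 and 0.11. Their summed level was 308, 431, 449, 469 and 339. The medians in monocytes were 0.53, 0.57, 0.58 and 0.17, in cDCs 0.54, 0.47, 0.61 and 0.18, and in neutrophils 0.40, 0.57, 0.47 and -0.17. This rise was therefore shared by other gates, and it lies with the mt- share that the rule limits.

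Ly6a, at chr15:74994877-74998031 on the minus strand, was among the largest increases at days 3 and 6. Its level was 1.37 (1.07 to 1.73) at day 0, 4.25 (3.86 to 4.67) at day 3, 4.3 (3.92 to 4.71) at day 6, 3.33 (3 to 3.69) at day 9 and 3.22 (2.39 to 4.24) at day 12. It was lowest at day 0. The ratios were 3.11 (2.41 to 4.05), 3.14 (2.45 to 4.1), 2.43 (1.88 to 3.19) and 2.35 (1.6 to 3.42).

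Neutrophils held little of it, with Ly6a at 0.0191 to 0.0791. Thinned to 1000 UMIs, 8.42, 28, 27.5, 26.1 and 21.4% of pDCs had a Ly6a UMI, and at most 0.8% of neutrophils. Without thinning the pDC shares were 31.6, 49.1, 52.3, 47.3 and 39.3%. With the pDCs that held other markers left out, the Ly6a level was 1.55, 4.99, 4.59, 3.45 and 3.42, so the rise remained. In B-lineage barcodes it was 0.918, 0.472, 0.792, 0.692 and 1.08, and in cDCs 0.405, 0.385, 0.172, 0.0355 and 0.0229. In T and NK barcodes it was higher on the later days than at day 0, at 0.492, 0.748, 1.16, 0.773 and 0.762. Neutrophils had 0.0191, 0.0528, 0.0791, 0.0623 and 0.0191 and monocytes 0.0159, 0.0667, 0.101, 0.058 and 0.0486, high on days 3 to 9.

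**Figure D4:**
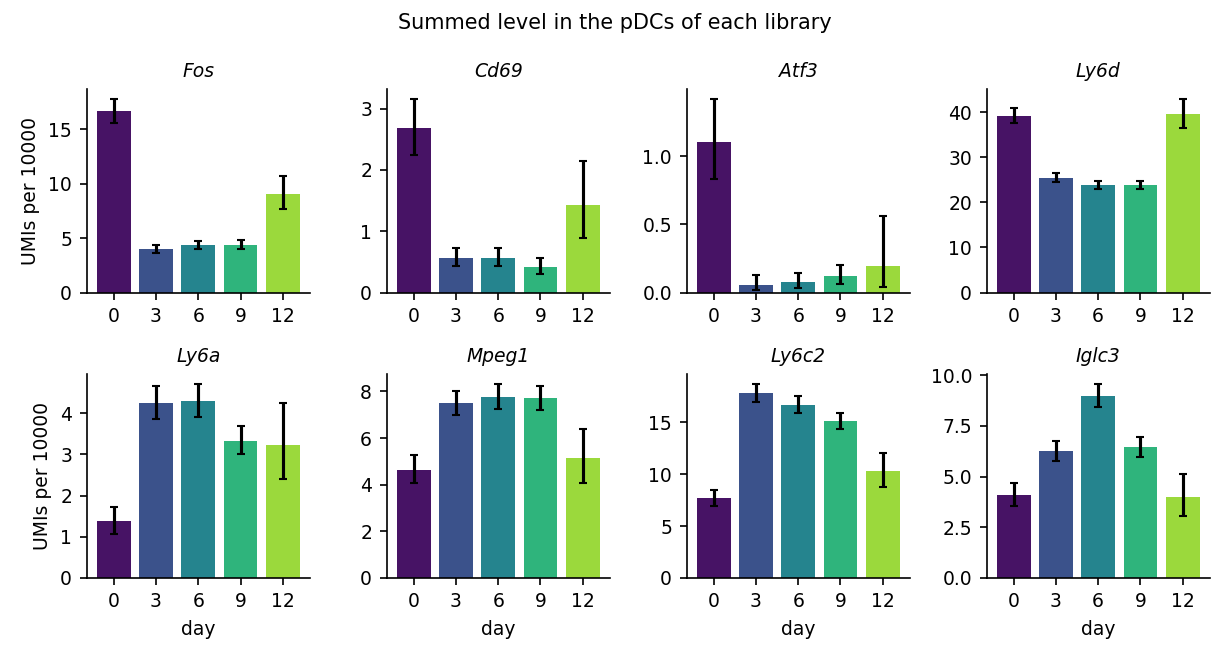
Level of 8 genes in pDCs (UMIs per 10000, vertical axes) over the 5 days, with exact Poisson intervals. Fos, Cd69 and Atf3 are highest at day 0, while Ly6a is at 1.37 at day 0 and at 3.22 to 4.3 on the later days.

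Ly6c2, at chr15:75108158-75111970 on the minus strand, was 7.71, 17.8, 16.7, 15.1 and 10.3. It was 2.31-fold (2.08 to 2.58) at day 3 and then 2.17-fold, 1.96-fold and 1.34-fold. Its thinned share in pDCs of 38.9, 64.6, 67.4, 63.1 and 39.3% was at or below the 54, 66.4, 69.4, 70 and 60.8% of neutrophils. B-lineage barcodes had Ly6c2 at 2.96, 2.85, 6.15, 3.46 and 2.12 and monocytes at 26.8, 38.7, 34.8, 33.7 and 30.6. How much of the pDC level came from surrounding RNA was not tested.

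Mpeg1 was 4.64, 7.49, 7.78, 7.71 and 5.15, higher on days 3 to 9 by 1.61-fold, 1.67-fold and 1.66-fold. Sirpa was 0.385, 1.19, 0.928, 0.988 and 0.708, or 3.1-fold, 2.41-fold, 2.56-fold and 1.84-fold of day 0. Cxcr3 was 0.154, 0.405, 0.441, 0.311 and 0.129, low at days 0 and 12, where it rested on few UMIs.

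Ly6d, at chr15:74762056-74763620 on the minus strand, went down and came back. Its level was 39.2, 25.5, 23.8, 23.8 and 39.7. It was 1.54-fold (1.45 to 1.63), 1.64-fold and 1.65-fold lower on days 3, 6 and 9, and 1.01-fold at day 12. The thinned share of pDCs with Ly6d was 77.9, 75.6, 73.6, 71.4 and 78.6%. In B-lineage barcodes Ly6d was 14.1, 4.53, 15, 13.9 and 8.81.

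Il7r was 2.27, 1.06, 1.43, 1.09 and 0.901, lower by 2.15-fold, 1.59-fold, 2.09-fold and 2.52-fold. In T and NK barcodes Il7r was 2.27, 1.39, 1.24, 1.48 and 1.26, also highest at day 0.

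The 8 largest increases at day 3 were BC100530, Gm5483, Ctsg, F13a1, Frmd4a, Fpr2, Ly6a and Sirpa. BC100530 had 57 UMIs there, 48 of them in 1 cell, and its ratio of 28.5 (4.91 to 1145) rested on 1 day 0 UMI. Gm5483 had 57 of its 69 UMIs in 1 cell. Ctsg had 31 of 51 UMIs in 1 cell and a ratio of 8.5 (2.75 to 42.6) on 3 day 0 UMIs. F13a1 was 0.116, 0.491, 0.303, 0.531 and 0.193, and 0.111, 0.179, 0.128, 0.302 and 0.152 with the pDCs holding other markers left out. Fpr2 was 0.116, 0.424, 0.175, 0.412 and 0.257, and on the same leaving out it went from 0.0443 at day 0 to 0.119 at day 3. Its day 3 ratio was then 2.69 (0.574 to 25.3) instead of 3.67, on 2 day 0 UMIs. Frmd4a was 0.116, 0.463, 0.34, 0.485 and 0.322, and its day 3 level of 0.512 remained with those cells out.

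At day 6 the 8 were Iglc1, Adam17, Ly6a, Lgals3bp, Vpreb3, Cdh1, Fn1 and Rnpepl1. Cdh1 was 0.173, 0.491, 0.515, 0.384 and 0.193 in pDCs and at most 0.0116 in the others, so it was high on days 3 to 9. Adam17 was 0.135, 0.279, 0.45, 0.393 and 0.386, Lgals3bp 0.135, 0.347, 0.423, 0.32 and 0.386, and Rnpepl1 0.193, 0.53, 0.561, 0.412 and 0.322. Vpreb3 was 0.173, 0.164, 0.524, 0.448 and 0. With the pDCs holding other markers left out it was 0.111 at day 0 and 0.255 at day 6. Its day 6 ratio was then 2.3 (0.862 to 7.73) instead of 3.02. Fn1 was 0.173, 0.222, 0.506, 0.439 and 0.0643, and on that leaving out it was 0.199 at day 0 and 0.351 at day 6. The day 6 ratio of Fn1 was then 1.76 (0.824 to 4.18) instead of 2.92.

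At day 9 they were Igha, Hbb-bs, Gm5483, F13a1, Frmd4a, Rab3d, Sel1l and Ceacam10. Igha was 0.0385, 0.193, 0.0276, 0.686 and 0 in pDCs and 0.00623, 1.79, 0.172, 5.5 and 0.516 in the others. Hbb-bs was 0.116, 0.0771, 0.221, 0.75 and 0 in pDCs against 4.16, 0.935, 3.63, 9.17 and 0.00716. Whether any of it came from pDCs was not tested. Sel1l was 0.116, 0.279, 0.359, 0.457 and 0.322, Rab3d 0.116, 0.26, 0.294, 0.467 and 0.193, and Ceacam10 0.116, 0.183, 0.11, 0.412 and 0.129. With the pDCs holding other markers left out, day 9 Ceacam10 was 0.169, F13a1 was 0.302, and Gm5483 was 0.121 instead of 0.457. Day 0 levels of these genes were then 0.0664, 0.111 and 0.0664. Their day 9 ratios were 2.54, 2.72 and 1.82 instead of 3.56, 4.59 and 5.94. On that leaving out 51 genes instead of 85 were at least 2-fold higher at day 9.

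At day 12 the largest 5 increases were Ifitm6, Smc2, Dtl, Anxa1 and Spag7. Ifitm6 went from 1.02 at day 0 to 3.73 and Anxa1 from 1.43 to 3.99, while the other barcodes had 18.8 and 17.7 at day 12. At day 12 a single cell held 22 of 58 Ifitm6 UMIs, and for Anxa1 it was 30 of 62. With the pDCs holding other markers left out, Ifitm6 went from 0.509 to 1.37 and Anxa1 from 0.819 to 1.52. Smc2 went from 0.482 to 1.67, a 3.47-fold (1.93 to 6.27) increase, Dtl from 0.54 to 1.74, a 3.22-fold (1.83 to 5.67) increase, and Spag7 from 0.54 to 1.48. The 26 Smc2 UMIs of day 12 came from 7 cells, with 8 in 1 cell. For Dtl the 27 UMIs came from 12 cells, also with 8 in 1 cell. The 5 largest decreases were Atf3, Fkbp4, Nr4a1, Gusb and Rgs1. Fkbp4 was 1.02, 1.11, 1.09, 0.851 and 0.257, and Gusb was 0.886, 0.781, 0.726, 0.567 and 0.257, each low at day 12.

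The median of the proliferation genes was above 0 at day 12 and below 0 on days 3, 6 and 9. Upward changes of at least 1.5-fold numbered 1 of 27, 2 of 27, 1 of 27 and 12 of 25 at days 3, 6, 9 and 12, and downward changes 1, 8, 3 and 1. The shares over all genes were 14.6, 15.4, 14.5 and 12.6% upward and 12.3, 12.3, 13.7 and 17.1% downward. The medians were -0.16, -0.46, -0.11 and 0.54, and the summed level was 65.9, 56.8, 48.6, 62.9 and 99.5. Stmn1 was 9.62, 6.37, 5.06, 6.85 and 13.8. Birc5 was 1.21, 1.26, 1.2, 1.38 and 3.02, a day 12 ratio of 2.49 (1.67 to 3.69). Tubb5 was 4.57, 4.91, 4.8, 5.57 and 9.52.

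Few pDCs held several genes of the cell cycle at once. At least 3 of the 6 genes Mki67, Top2a, Birc5, Ccnb2, Cdk1 and Ube2c were found in 11, 15, 21, 23 and 4 pDCs. The shares were 11.6% (5.92 to 19.8), 9.09, 10.9, 11.3 and 14.3% (4.03 to 32.7), with intervals that overlap. The list as a whole was spread wider, with a median of 5 of its genes found per pDC on days 0 to 9 and 6 at day 12. Monocytes had list medians of 0.36, 0.43, 0.49 and 0.64, and cDCs 0.42, -0.04, 0.32 and 0.61. They were 1.32, 1.18, 1.57 and 0.83 in T and NK barcodes, 0.72, 0.56, 0.66 and 0.62 in B-lineage barcodes and -0.03, -0.00, -0.09 and -0.18 in neutrophils.

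Lymphoid transcripts were present in pDCs. Iglc3, at chr16:19065230-19065681 on the minus strand, was 4.1, 6.25, 8.99, 6.44 and 3.99, highest at day 6. The ratios to day 0 were 1.52 (1.3 to 1.79), 2.19 (1.89 to 2.55), 1.57 (1.34 to 1.84) and 0.972. Its thinned share was 33.7, 39, 44.6, 40.4 and 21.4%, against at most 2.4% in neutrophils. Iglc2, at chr16:19198396-19200351, was only 0.27, 0.251, 0.579, 0.704 and 0.0643 in pDCs, while B-lineage barcodes had Iglc3 at 5.66 and Iglc2 at 8.2. The day 6 increase of Iglc1, from 0.0578 to 0.892, was a ratio of 15.4 (5.12 to 76.1) on 3 day 0 UMIs. It also went from 0.6 to 2.7 in the other barcodes and from 0.0554 to 0.42 in neutrophils, and whether it came from pDCs was not tested.

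Dntt was 1.75, 1.19, 1.88, 1.2 and 1.09, and Blnk was 2.45, 1.85, 1.91, 1.88 and 1.8. Cd4 was 0.462, 0.713, 0.984, 0.887 and 0.708, highest at day 6. Cd8b1 was 0.231, 0.675, 0.57, 0.43 and 0. Of the lymphoid list 3, 9, 7 and 1 genes were at least 1.5-fold higher and 3, 3, 2 and 4 lower, of 16, 17, 17 and 10, with medians of -0.26, 0.81, 0.37 and -0.29. The shares over all genes were 14.6, 15.4, 14.5 and 12.6% higher and 12.3, 12.3, 13.7 and 17.1% lower. In the other barcodes the medians of this list were -0.43, 0.47, 0.25 and -2.11.

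The remaining lists had these counts and medians on days 3, 6, 9 and 12, to be read beside the same shares of all genes. The 24 pDC markers outside the rule had 2, 4, 3 and 0 genes at least 1.5-fold higher and 1 lower on each day, with medians of 0.19, 0.21, 0.11 and 0.01. Of the 4 rule genes 0, 1, 0 and 0 were higher and 0, 0, 0 and 2 lower. Transcription factors had medians of 0.04, 0.17, 0.20 and 0.17, with 2, 2, 1 and 1 genes higher and 1, 1, 2 and 1 lower of 20, 19, 19 and 17. The sensing list had 0.31, 0.27, 0.13 and 0.02, with 4, 4, 1 and 2 higher and 1, 0, 1 and 0 lower of 16, 16, 16 and 14.

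Secretory genes had medians of 0.16, -0.14, -0.11 and -0.26, with 1, 2, 2 and 1 of 24, 24, 24 and 22 higher and 1, 3, 4 and 3 lower. For antigen presentation the medians were 0.24, 0.29, 0.01 and -0.14, with 0, 1, 1 and 1 of 14, 14, 14 and 13 higher and 1, 0, 0 and 0 lower. Homing receptors gave 0.25, 0.21, 0.15 and -0.57, with 4, 3, 3 and 0 of 13, 13, 13 and 10 higher and 1, 0, 0 and 4 lower. For cytokine receptors and signalling they were 0.00, 0.08, 0.04 and -0.34, with 2, 5, 3 and 1 of 13, 15, 14 and 10 higher and 2, 1, 1 and 3 lower. Survival and death genes gave -0.07, -0.33, -0.18 and -0.26, with 1, 0, 1 and 3 of 14, 14, 14 and 12 higher and 5, 2, 3 and 4 lower. Among these, Pmaip1 was 0.443, 0.0867, 0.0827, 0.137 and 0.257 and Bcl2 was 0.925, 0.472, 0.662, 0.448 and 0.515, both highest at day 0.

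Marker lists of other cell types were also summed in pDCs, whichever cell the RNA came from. Counts of these markers on days 3, 6, 9 and 12 stand beside 14.6, 15.4, 14.5 and 12.6% of all genes higher and 12.3, 12.3, 13.7 and 17.1% lower. The 12 neutrophil markers summed to 415, 530, 316, 536 and 778 per 10000 UMIs of pDCs, with S100a8 the most abundant at 189, 216, 123, 217 and 363. A few pDCs weighed on these sums, with 6, 10, 4, 14 and 2 pDCs at 10% or more. The median share of the markers per pDC was 1.38, 1.72, 1.84, 1.9 and 2.24%. At day 6 this median was above day 0, though the sum was below it. Of those markers 6, 0, 7 and 8 were at least 1.5-fold higher and 1, 2, 0 and 0 lower, of 12, 11, 12 and 11. The 12 monocyte markers, led by Lyz2, summed to 25.6, 33.7, 34.7, 38.1 and 30.2, with 4 of 7, 5 of 7, 5 of 6 and 1 of 4 higher and 0, 0, 0 and 1 lower. The 16 cDC markers, led by Cst3, summed to 20.7, 25.2, 25.1, 23.1 and 24.2, against 14.8, 16.4, 17.8, 16.5 and 13.7 in the other barcodes, with 5 of 12, 5 of 12, 3 of 11 and 1 of 9 higher and 0, 0, 0 and 1 lower. In the cDC gate, pooled over libraries, the sum was 68.9.

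B-lineage markers, 9 in all, summed to 1.46, 1.14, 2.52, 2.19 and 1.03, and of 4, 4, 4 and 2 with at least 20 UMIs 0, 2, 2 and 0 were higher and 2, 0, 0 and 1 lower. The 7 plasma cell markers summed to 0.54, 0.694, 0.708, 1.24 and 0.708, with 1 of 2, 1 of 2, 2 of 3 and 1 of 1 higher and 0 lower on each day. The 12 T and NK markers, of which Cd4 was the most abundant, summed to 1.95, 2.16, 2.55, 2.75 and 1.54, with 2 of 5, 2 of 6, 4 of 6 and 1 of 2 higher and 2, 2, 1 and 1 lower. The 8 erythroid markers summed to 0.231, 0.222, 0.423, 1.38 and 0.129, with 1 of 1 higher at day 6, 3 of 3 at day 9 and 0 lower. The 6 basophil and mast cell markers summed to 0, 0.135, 0.0827, 0.192 and 0, with Ms4a2, Fcer1a and Gata2 at 0.

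A further question was whether the pDCs of a library were alike. Thinned to 1000 UMIs, a Bst2 UMI was found in 97.9, 95.1, 93.8, 94.1 and 89.3% of pDCs and in at most 6.2% of neutrophils. For Irf8 the shares were 77.9, 85.4, 86.5, 80.8 and 71.4%, and for Tcf4 57.9, 57.9, 58.5, 65.5 and 75%. Ccr9 was found in 30.5, 39.6, 38.3, 39.9 and 28.6% and Klk1 in 14.7, 23.2, 25.4, 20.2 and 14.3%. Cd74 was found in 58.9, 72.6, 72, 70.9 and 46.4%, against at most 11.8% of neutrophils, and H2-Aa in 48.4, 53, 54.9, 56.2 and 42.9%, against at most 4.6%. Of 165 pDCs at day 3, 1 had too few UMIs to be thinned and was left out.

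Splitting the thinned pDCs by Ly6a, a gene chosen after its values were seen, gave 8, 46, 53, 53 and 6 cells with a UMI and 87, 118, 140, 150 and 22 without. Cd74 was 68.8, 67, 64.3, 51.9 and 68.3 per 10000 in cells with Ly6a and 32.8, 30.3, 33, 30.7 and 17.3 in those without. H2-Aa was 30, 25.4, 18.9, 20 and 23.3 against 10.5, 9.83, 11.6, 11.9 and 7.73. Bst2 was 58.8, 52.6, 56, 45.7 and 56.7 against 43.3, 45.3, 43.2, 42.5 and 36.8. These 3 genes were higher with Ly6a in 5 of 5 libraries, with 8 and 6 cells behind the values of days 0 and 12. The genes shown for this split were also picked after their values were seen.

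Other genes were lower in the cells with Ly6a. Stmn1 was 0, 0.652, 0.943, 1.89 and 0 with Ly6a and 7.24, 5.68, 3.71, 4.87 and 9.55 without. Tmsb10 was 13.8, 14.8, 17, 20.8 and 10 against 28.2, 27.5, 26.3, 25.9 and 31.4. Before thinning the median depth was 3518, 5236, 4825, 4758 and 3686 UMIs with Ly6a and 5123, 5668, 5445, 4659 and 5644 without. The median mt- share was 4.19, 4.7, 4.94, 4.92 and 4.68% against 2.89, 4.33, 4.59, 4.82 and 3.28%. The split was seen at day 0 too, on 8 cells with Ly6a.

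**Figure D5:**
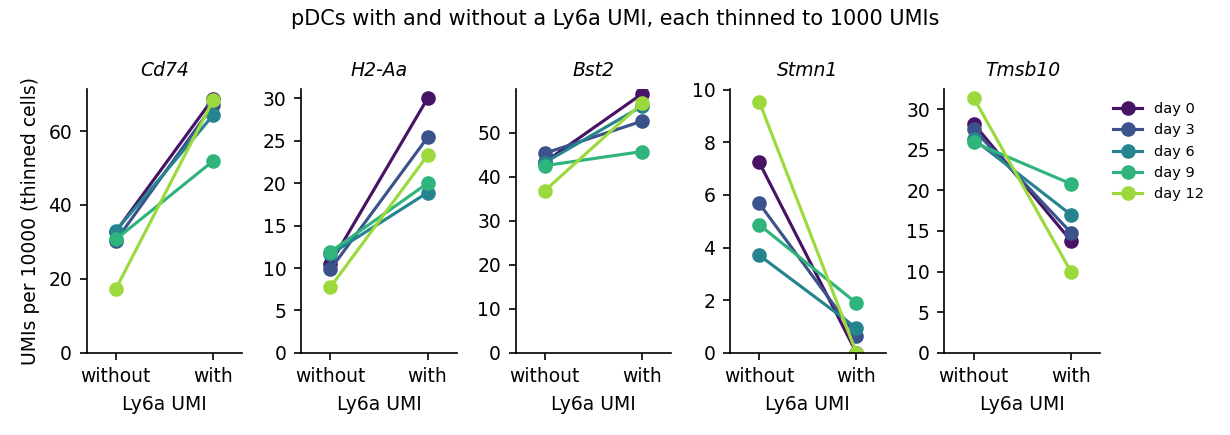
Level of 5 genes (UMIs per 10000, vertical axes) in pDCs with and without a Ly6a UMI after thinning to 1000 UMIs, for each day. Cd74 is at 51.9 to 68.8 with Ly6a and at 17.3 to 33 without, and Stmn1 is at 0 to 1.89 with Ly6a and at 3.71 to 9.55 without.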

How the data were processed

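The count values are UMI counts per gene and barcode, which the authors made with Cell Ranger against mm10 before they were deposited. They were read as they stand. The members and the 24 gene lists were chosen with earlier results of these data known. Of 409 listed genes, 2 were missing from the files.

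Counts were summed over the pDCs of a library and given per 10000. A library at 0 was set to 3 counts for a ratio. Genes were named by a rule: the rule genes and markers; listed genes; the 25 outside the rule with the largest lowest ratio to other barcodes (at least 100 UMIs, 0.1 added); the 8 largest increases and 8 largest decreases on days 3, 6 and 9 (5 and 5 on day 12) with at least 50 UMIs; and the 10 most extreme of those on 1 side of day 0 by 1.5-fold on all 3 days. Others were chosen after their values were seen.

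Gates used the marker lists and were chosen after the data were seen. A neutrophil barcode had at least 20% of UMIs from the 12 neutrophil markers and fewer than 3 B-lineage and 3 T and NK markers. The other gates required under 10% neutrophil-marker UMIs and 0 Siglech UMIs. They needed at least 4 of 9 B-lineage, 4 of 12 T and NK, 7 of 12 monocyte (with fewer than 6 cDC), 6 of 16 cDC (with fewer than 7 monocyte) or 3 of 7 plasma cell markers. Thinning drew 1000 UMIs from each barcode without replacement.

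Work was done in Python 3.11.15 with numpy 2.4.6, scipy 1.17.1, pandas 2.3.3, scanpy 1.11.5 (for Scrublet) and matplotlib 3.10.9, and the ratio code was tested on simulated data. Promoter windows came from RefSeq on GRCm38.p6, and gene positions from GENCODE on GRCm38.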

Additional observations from a re-analysis of the deposited data

Results flagged for a closer look

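Some barcodes met both gene conditions of the rule but lay over the mt- limit, so they are outside the 684 pDCs and enter only the alternative with no mt- limit. There were 16 at day 3, 10 at day 6 and 17 at day 9, against 3 at day 0 and 0 at day 12, 46 in all. Their median mt- share was 18.9% at day 0, 20.6% at day 3, 18.8% at day 6 and 14.4% at day 9, and their median depth was 1543 UMIs. Bst2 was at 27.3, Tcf4 at 15.2, Irf8 at 25.8 and Runx2 at 6.78 per 10000 UMIs, so they carried pDC markers outside the rule. Whether they were damaged pDCs or cells in another state was not tested.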

How the results depend on the processing

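Of 138 values under other settings, 104 stayed with the reported ones and 34 moved. Direction was turned in 0 of 40 share ratios and 0 of 32 medians. The other values are counts of genes, which cannot turn direction. The pDC share ratios stayed in 36 of 40, between 0.276 and 2.56. The mt- limit of 5% gave 1.61, 1.49 and 1.25 for days 3, 6 and 9, and thinning all barcodes to 1000 UMIs before the rule gave 3.18 for day 3.

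The immediate-early median stayed in 20 of 32, from -1.20 to -0.39. Averaging over cells gave -1.26 for day 3 and -1.12 for day 9. Thinned pDCs gave -1.12, -1.12, -1.10 and -0.75 for days 3, 6, 9 and 12. Leaving out the highest doublet scores gave -1.16 for day 3. Genes with at least 100 UMIs gave -1.04 for day 9 and -0.63 for day 12, and a minimum of 3 Siglech UMIs gave -1.12 for day 9. Leaving out pDCs with markers of other cell types, an alternative chosen after seeing the data, gave -1.33 for day 3 and -1.36 for day 9. The cause was not tested.

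Counts of genes past 2-fold stayed in 23 of 32 upward and 24 of 32 downward. With pDCs thinned, the upward counts were 6, 5, 9 and 5 and the downward counts 15, 32, 21 and 10. The shares of genes moved too, to 0.679% higher and 4.35% lower at day 6. Thinning thus turned the balance on days 3, 6 and 9, from more genes higher to more genes lower. It also turned with the pDCs holding markers of other cell types left out, to 52 higher and 68 lower at day 3. At days 6 and 9 that setting gave 60 and 80, and 51 and 71. Leaving out the highest doublet scores gave 56 and 58, 71 and 79, and 67 and 70. Averaging over cells gave 72 and 78 at day 3, 68 and 79 at day 6, but 83 and 71 at day 9. Totals without the neutrophil markers gave 70 and 72 at day 6. The balance on these days was therefore not stable. The floor of 100 UMIs gave 22, 25, 25 and 9 upward and 24, 24, 23 and 9 downward. Without pDCs holding markers of other cell types, 51 genes were higher at day 9. Of genes against the other barcodes of each library, 205 instead of 102 were lower, and 423 higher as before, once the floor could be met on either side, an alternative chosen after seeing the data.

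Each day was 1 mouse, so a difference between days cannot be told apart from one between mice, libraries or sample handling. Day 12 had 28 pDCs and 155430 UMIs, which limits every gene there. The rule asks for 3 or more UMIs in total, so a shallow pDC can be missed. Free RNA was gauged with neutrophil barcodes and not subtracted. The gene lists and gates were written by hand.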

Other observations

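Splitting the thinned pDCs by a Ly6c2 UMI, a gene chosen after its values were seen, gave 37, 106, 130, 128 and 11 cells with it and 58, 58, 63, 75 and 17 without, from day 0 to day 12. Cd74 was 42.7, 45.6, 49.3, 42 and 49.1 per 10000 in cells with Ly6c2 and 31.4, 31.6, 25.7, 26.4 and 14.7 in cells without. Bst2 was 49.7, 48.2, 51.2, 45 and 50 against 41.4, 45.9, 37.6, 40.4 and 35.3. Stmn1 was 2.43, 2.64, 1.62, 3.44 and 7.27 against 9.31, 7.24, 5.71, 5.2 and 7.65, with little between them at day 12 on 11 and 17 cells. The thinned Ly6c2 share of pDCs was below that of neutrophils in every library, and whether the split sorts cells by surrounding RNA was not tested.

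The split by Ly6d gave 74, 124, 142, 145 and 22 pDCs with a UMI and 21, 40, 51, 58 and 6 without. Cd7 was 11.1, 8.95, 11.4, 8.07 and 6.36 against 4.29, 7.25, 7.25, 6.55 and 5. Cd7, picked after its values were seen, was higher with Ly6d in 5 of 5 libraries, with 6 cells without Ly6d at day 12. Bst2 was 45.9, 49.3, 50.8, 45.4 and 46.4 with Ly6d against 40, 41.5, 35.5, 37.9 and 21.7 without. Bst2 and Il7r were thus also higher in 5 of 5, and other genes went both ways, such as Cd74, higher in 3. In the splits by Ly6a and Ly6c2 Bst2 was higher in 5 of 5 libraries as well.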
